A study of Mus musculus with 11 samples.

Results

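The 8 genes described here are Dppa3, Dnd1, Nanos3, Prdm1, Prdm14, Tfap2c, Ifitm1 and Ifitm3, a set known from the founding of the germ line. They were taken by gene symbol from the table of read counts per gene, where all 8 were found among 56748 genes, and all 8 passed the filter on low counts that left 16572 genes for testing. RNA was sequenced from tailbuds cut by hand from mouse embryos at embryonic day 8.5. The groups were homozygous Fgfr1 FCPG/FCPG embryos (3 libraries, numbered 19, 45 and 46), homozygous Fgfr1 FCSPG/FCSPG embryos (4 libraries, numbered 13, 27, 30 and 32) and wild-type embryos (4 libraries, numbered 24, 25, 26 and 33). Both mutant alleles carry point mutations in residues of the FGF receptor FGFR1 through which it binds its signalling effectors, and the study set each mutant against wild type, and FCSPG against FCPG, to ask how transcription in early mesoderm depends on canonical FGF signalling. The labels name no conditional driver for either allele. Embryo strain and sex are not given in the labels, nor do they tell single embryos from pools. Each p-value thus rests on the spread between these libraries alone, which may in part be technical.

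Primordial germ cells are the precursors of eggs and sperm. In the mouse they are set aside from the proximal epiblast in answer to BMP and WNT signals, when Prdm1, Prdm14 and Tfap2c switch on, shut down the somatic programme and allow pluripotency genes to return. At the stage sampled here they lie near the base of the allantois and in the hindgut endoderm at the posterior end of the embryo, so a dissected tailbud can hold a small and variable number of them. The labels name neuromesodermal progenitors, somitic mesoderm and intermediate mesoderm as the cells collected and do not name germ cells. In bulk RNA, fewer cells of a type and less RNA per cell cannot be told apart.

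Total counts per library ran from 16014698 to 25453070. Values are given as CPM, a gene's count scaled to 1000000 counts per library after TMM correction, which aligns the bulk of genes between libraries. All 10 tailbud markers fixed for the check of the tissue were counted in every library. Their summed level was 1216, 279 and 680 CPM in FCPG libraries 19, 45 and 46. It was 625 to 1304 CPM in FCSPG libraries and 664 to 1022 CPM in wild-type libraries. FCPG library 45 thus had the lowest tailbud sum of all libraries. Markers of neighbouring tissues were counted too. The 18 visceral endoderm markers summed to 1800.4, 17898 and 4677 CPM in FCPG libraries 19, 45 and 46, against 865 to 4092 CPM in FCSPG libraries and 179.9 to 1307 CPM in wild-type libraries. Only Apoa4 of that list was at 0 anywhere. The 10 markers of the allantois and extraembryonic mesoderm summed to 404, 538 and 1749 CPM in FCPG libraries 19, 45 and 46, against 579 to 823 CPM in FCSPG libraries and 666 to 816 CPM in wild-type libraries. Transcripts of Y-linked genes summed to 167 CPM in FCPG library 19, 195 CPM in FCPG library 45 and 179 CPM in FCSPG library 32, and were at 0 in FCPG library 46, in FCSPG libraries 13, 27 and 30 and in all wild-type libraries. Library 46 was thus the single FCPG library with no Y-linked counts. Xist, the RNA of the inactive X chromosome, had 0.211, 1.71 and 670 CPM in FCPG libraries 19, 45 and 46. It had 0.151 CPM in FCSPG library 32, 246 to 530 CPM in FCSPG libraries 13, 27 and 30, and 347 to 514 CPM in wild-type libraries. Within each mutant group the libraries thus did not all come from the same embryo.

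The germ cell genes were detected in wild-type tailbud at very unequal levels. Levels were divided by the deposited gene length, which need not match the transcript made here, so the order at close levels is approximate. The mean wild-type level was 152 ± 20.1 CPM per kilobase for Ifitm1, 20.6 ± 3.08 for Ifitm3 and 2.48 ± 0.965 for Tfap2c (SD, n = 4). It was 1.67 ± 0.293 for Prdm1, 1.42 ± 0.928 for Dnd1, 1.34 ± 0.543 for Dppa3, 0.432 ± 0.160 for Nanos3 and 0.278 ± 0.155 for Prdm14 (SD, n = 4). In that order the wild-type ranges did not overlap between Ifitm1 and Ifitm3, between Ifitm3 and Tfap2c, or between Dppa3 and Nanos3. The other neighbours overlapped. In FCPG libraries the order was Ifitm1, Ifitm3, Tfap2c, Dnd1, Prdm1, Dppa3, Prdm14 and Nanos3, and in FCSPG libraries it was Ifitm1, Ifitm3, Tfap2c, Dnd1, Dppa3, Prdm1, Prdm14 and Nanos3. In both mutants all neighbours from Tfap2c down overlapped.

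**Figure D1:**
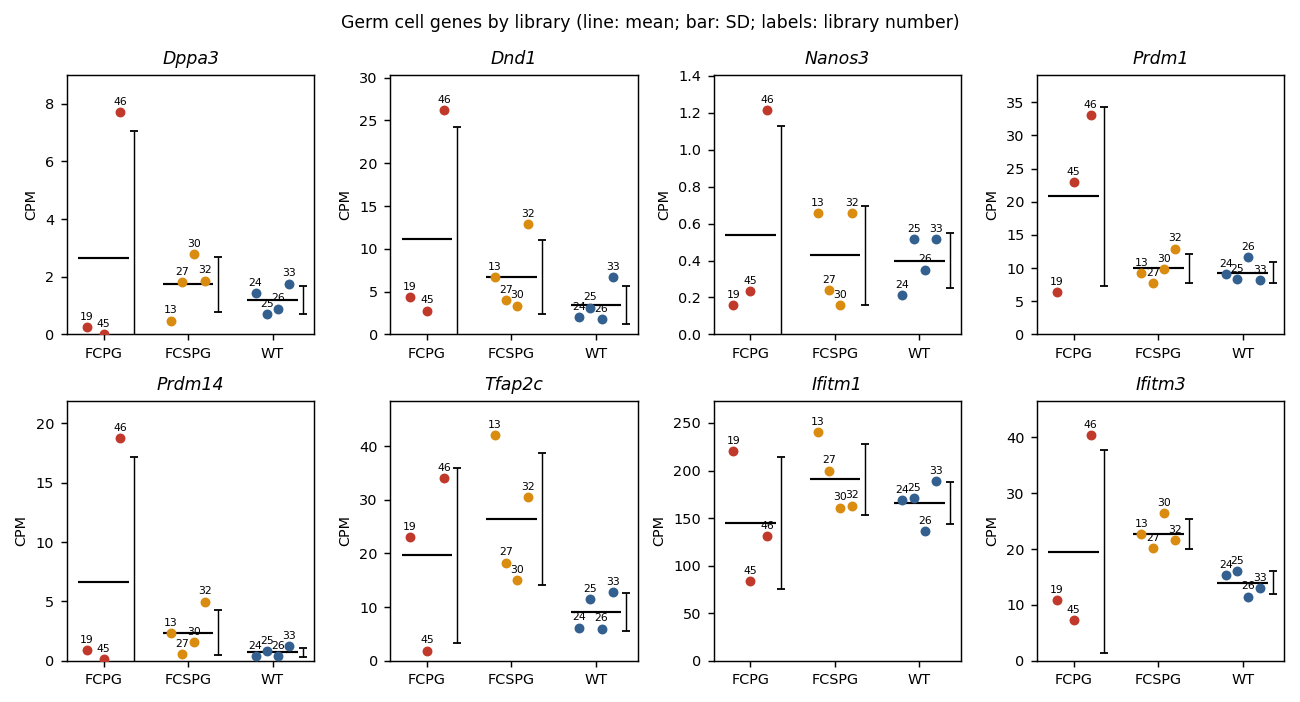
Level of each germ cell gene in CPM (vertical axis, from 0, a separate scale per gene) in every FCPG, FCSPG and wild-type (WT) library. Points are libraries with their numbers, horizontal lines are group means and bars are SD (n = 3, 4 and 4; bars that would pass below 0 end at the axis). FCPG library 46 is the highest point for 6 of the 8 genes, and Tfap2c and Ifitm3 are higher in all 4 FCSPG libraries than in all 4 WT libraries.

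Among the 3 transcription factors that set germ cell fate, Tfap2c separated FCSPG from wild-type libraries, while Prdm14 and Prdm1 had their highest values in FCPG library 46. Tfap2c (ENSMUSG00000028640, chromosome 2, 172391513 to 172400542, plus strand, in mm39, the build of all gene coordinates given here) encodes AP-2 gamma, which acts with Prdm1 in germ cell specification and is also made in extraembryonic ectoderm and surface ectoderm. Tfap2c stood at 23.0, 1.89 and 34.1 CPM in FCPG libraries 19, 45 and 46, at 42.0, 18.3, 15.0 and 30.5 CPM in FCSPG libraries 13, 27, 30 and 32, and at 6.18, 11.5, 5.99 and 12.8 CPM in wild-type libraries 24, 25, 26 and 33. Every FCSPG library lay above every wild-type library, and 2 FCPG libraries did, while FCPG library 45 was the lowest of all 11. Tfap2c averaged 26.5 ± 12.3 CPM in FCSPG libraries and 9.13 ± 3.55 CPM in wild-type libraries (SD, n = 4 each), a log2 fold change of 1.54 ± 0.65 (SE), or 2.90-fold. The unadjusted p was 0.0365 and the adjusted p 0.446 by edgeR's quasi-likelihood test with Benjamini-Hochberg adjustment over all tested genes, so the difference did not pass the test. In FCPG libraries it averaged 19.7 ± 16.4 CPM (SD, n = 3), a log2 fold change over wild type of 1.11 ± 0.68 (adjusted p = 0.364, same edgeR test), which was 1.64 without library 45 and 0.45 without library 46.

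Markers of other tissues that use Tfap2c also varied between libraries. The 12 markers of extraembryonic ectoderm, a list that includes Tfap2c itself, summed to 517 to 620 CPM in FCPG libraries, 352 to 856 CPM in FCSPG libraries and 271 to 483 CPM in wild-type libraries. Over wild type, 8 of the 12 had a log2 fold change above 0 in FCPG and 10 of the 12 in FCSPG, Tfap2c included. In each, 5 were higher at an unadjusted edgeR p of 0.05, beside 13% of all tested genes in FCPG and 6.24% in FCSPG. Past edgeR's adjusted threshold there were 0 of the 12 and 0% of all tested genes. Elf5, a defining factor of that tissue, was at 0 in FCPG library 45 and wild-type library 26 and reached at most 1.76 CPM, in FCSPG library 27. Eomes and Rhox5, named after their values were seen, were higher in all FCPG libraries than in all wild-type libraries. These 2 groups did not overlap for 14.5% of all tested genes. Wnt7b of the same list was lower in all FCPG than in all wild-type libraries (log2 fold change -2.46, adjusted p = 0.115, edgeR). Bmp8b (-0.91), Gata3 (-0.56) and Elf5 (-0.27) also had log2 fold changes below 0 in FCPG over wild type. Eomes had 3.95, 0.523, 0.320 and 4.94 CPM in FCSPG libraries 13, 27, 30 and 32, against 0.117 to 0.569 CPM in wild-type libraries, and was highest in FCPG library 45, at 34.1 CPM, where Tfap2c was lowest. Rhox5 had 123, 49.5, 17.6 and 104 CPM in FCSPG libraries 13, 27, 30 and 32, against 5.92 to 34.6 CPM in wild-type libraries. Log2 CPM of Rhox5 minus the wild-type mean was 1.8, 4.1 and 2.1 in FCPG libraries 19, 45 and 46. Rhox5 was thus also highest in FCPG library 45. For both genes and for Tfap2c, FCSPG libraries 13 and 32 were the highest of the FCSPG group. The 10 markers of surface ectoderm and amnion summed to 885, 1614 and 1157 CPM in FCPG libraries 19, 45 and 46. They summed to 1061 to 1505 CPM in FCSPG libraries and 559 to 1062 CPM in wild-type libraries, with none at 0. In FCPG library 45, log2 CPM minus the wild-type mean was -5.8 for Trp63, -4.0 for Tfap2a, -3.3 for Grhl3 and Wnt6 and -2.9 for Dlx5. It was -1.2 for Krt19, -0.5 for Grhl2, 1.2 for Krt8, 1.4 for Krt18 and 1.2 for Epcam. Krt8, Krt18 and Epcam are also in the hindgut endoderm list. Of the 10 markers, 3 had a log2 fold change above 0 in FCPG and 8 in FCSPG over wild type, and 0 passed edgeR's adjusted threshold. Krt8, an epithelial keratin named after its values were seen, was higher in all FCSPG than in all wild-type libraries (log2 fold change 0.58, adjusted p = 0.462, edgeR). So were 4% of all tested genes. Tfap2a, a paralogue of Tfap2c in the same list, had 27.4, 20.6, 14.5 and 16.2 CPM in FCSPG libraries 13, 27, 30 and 32, against 13.9, 19.4, 15.5 and 16.3 CPM in wild-type libraries 24, 25, 26 and 33, and the groups overlapped. The part of these tissues in the Tfap2c values was not tested.

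Prdm14 (ENSMUSG00000042414, chromosome 1, 13183681 to 13197387, minus strand) encodes a zinc finger factor nearly exclusive, in the embryo, to germ cells and pluripotent cells, where it helps restore pluripotency gene expression and erase DNA methylation. It was counted 17, 2 and 309 times in FCPG libraries 19, 45 and 46, which is 0.897, 0.118 and 18.8 CPM. Prdm14 stood at 2.33, 0.571, 1.60 and 4.99 CPM in FCSPG libraries 13, 27, 30 and 32, and at 0.423, 0.798, 0.389 and 1.24 CPM in wild-type libraries 24, 25, 26 and 33. FCPG library 46 was 22.2-fold above the median of the other 10 libraries, and FCPG library 45 was the lowest of all. Of the FCSPG libraries, 13, 30 and 32 lay above all wild-type libraries and 27 lay among them. The log2 fold change of FCPG over wild type was 3.20 ± 1.21 (SE), or 9.22-fold, with an unadjusted p of 0.0218 and an adjusted p of 0.164 by edgeR, and it was -0.46 without library 46. Prdm14 averaged 2.37 ± 1.89 CPM in FCSPG libraries and 0.713 ± 0.398 CPM in wild-type libraries (SD, n = 4 each), a log2 fold change of 1.73 ± 1.13 (adjusted p = 0.556, edgeR).

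Prdm1 (ENSMUSG00000038151, chromosome 10, 44313173 to 44404497, minus strand) encodes BLIMP1, the repressor that opens germ cell specification, and is also made in visceral and anterior endoderm. It had 6.44, 22.9 and 33.0 CPM in FCPG libraries 19, 45 and 46, against 9.27, 7.76, 9.82 and 12.9 CPM in FCSPG libraries 13, 27, 30 and 32 and 9.09, 8.31, 11.7 and 8.23 CPM in wild-type libraries 24, 25, 26 and 33. FCPG libraries 45 and 46 were the 2 highest of all 11 and FCPG library 19 was the lowest. The log2 fold change of FCPG over wild type was 1.15 ± 0.41 (SE), with an unadjusted p of 0.017 and an adjusted p of 0.15 by edgeR. It became 1.58 (adjusted p = 0.00828, edgeR) without FCPG library 19, a fit that called 16.1% of all tested genes. Over the alternatives tried, its adjusted p ran from 0.00828 to 0.456. Prdm1 was the only one of the 8 genes high in library 45, the library with the highest summed visceral endoderm markers. Their part in the Prdm1 values was not tested. In FCSPG libraries Prdm1 averaged 9.95 ± 2.18 CPM and in wild-type libraries 9.33 ± 1.63 CPM (SD, n = 4 each), a log2 fold change of 0.09 ± 0.39 (adjusted p = 0.934, edgeR).

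The genes that guard germ cells once they are made had their highest values in the same FCPG library. Dppa3 (ENSMUSG00000046323, chromosome 6, 122603369 to 122607231, plus strand), also called Stella or PGC7, is the classic early germ cell marker, and its protein shields methylated DNA in the zygote. Dppa3 had 0.264, 0 and 7.72 CPM in FCPG libraries 19, 45 and 46, against 0.478, 1.81, 2.78 and 1.86 CPM in FCSPG libraries 13, 27, 30 and 32 and 1.43, 0.704, 0.895 and 1.76 CPM in wild-type libraries 24, 25, 26 and 33. FCPG libraries 19 and 45 lay below all wild-type libraries and FCPG library 46 above all of them. The count of 0 in FCPG library 45 allows up to 3 counts, or 0.177 CPM. The log2 fold change of FCPG over wild type was 1.15 ± 1.13 (adjusted p = 0.582, edgeR), and it was -3.07 without library 46. Of the FCSPG libraries, 3 lay above all wild-type libraries and library 13 lay below them, for a log2 fold change of 0.54 ± 1.07 (adjusted p = 0.854, edgeR).

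Dnd1 (ENSMUSG00000044595, chromosome 18, 36896724 to 36899267, minus strand) encodes Dead end, an RNA-binding protein whose loss kills migrating germ cells. It had 4.33, 2.78 and 26.2 CPM in FCPG libraries 19, 45 and 46, against 6.70, 4.04, 3.36 and 12.8 CPM in FCSPG libraries 13, 27, 30 and 32, and 2.06, 3.14, 1.83 and 6.67 CPM in wild-type libraries 24, 25, 26 and 33. All 7 mutant libraries except FCPG library 45 exceeded 3 of the 4 wild-type libraries, but wild-type library 33 overlapped both mutant groups. Dnd1 averaged 11.1 ± 13.1 CPM in FCPG libraries (SD, n = 3) and 3.43 ± 2.24 CPM in wild-type libraries (SD, n = 4), a log2 fold change of 1.70 ± 0.76 (unadjusted p = 0.047, adjusted p = 0.224, edgeR) that was 0.06 without library 46. For FCSPG over wild type it was 0.98 ± 0.71 (adjusted p = 0.594, edgeR).

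Nanos3 (ENSMUSG00000056155, chromosome 8, 84900360 to 84911846, minus strand) encodes an RNA-binding zinc finger protein that keeps germ cells alive during migration. Its level was at the edge of detection in every group. It had 0.158, 0.236 and 1.22 CPM in FCPG libraries 19, 45 and 46, against 0.658, 0.238, 0.160 and 0.655 CPM in FCSPG libraries 13, 27, 30 and 32, and 0.211, 0.516, 0.350 and 0.517 CPM in wild-type libraries 24, 25, 26 and 33. Only FCPG library 46 stood apart, at 4.13-fold the median of the other 10. The log2 fold changes were 0.41 ± 0.74 for FCPG and 0.09 ± 0.69 for FCSPG over wild type (adjusted p = 0.784 and 0.964, edgeR), and differences were not detectable at this depth.

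**Figure D2:**
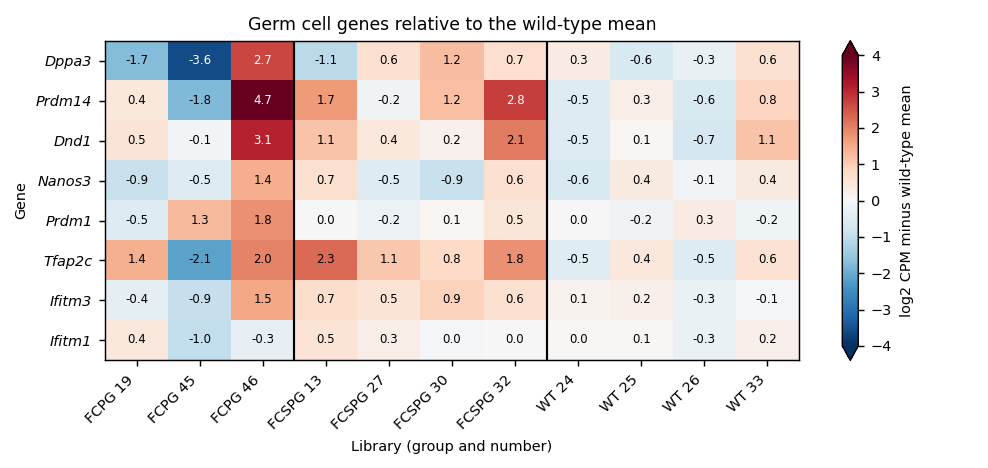
Log2 CPM of each germ cell gene (rows) in each library (columns) minus the wild-type mean of that gene, with the value printed in each cell. The column of FCPG library 46 runs from 1.4 to 4.7 for every gene except Ifitm1 (-0.3), and the column of FCPG library 45 is below 0 for every gene except Prdm1 (1.3).

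Ifitm3 and Ifitm1 encode small interferon-induced transmembrane proteins, also named fragilis and fragilis 2, that mark the cells from which germ cells arise. They are neighbours on chromosome 7. Ifitm3 (ENSMUSG00000025492, 140589499 to 140590683, minus strand) had 10.8, 7.32 and 40.3 CPM in FCPG libraries 19, 45 and 46, against 22.7, 20.2, 26.4 and 21.6 CPM in FCSPG libraries 13, 27, 30 and 32 and 15.3, 16.0, 11.5 and 13.0 CPM in wild-type libraries 24, 25, 26 and 33. The FCSPG group lay wholly above the wild-type group with little spread inside either, while the FCPG group straddled both. Ifitm3 averaged 22.7 ± 2.65 CPM in FCSPG libraries and 14.0 ± 2.09 CPM in wild-type libraries (SD, n = 4 each), a log2 fold change of 0.70 ± 0.42 (SE), or 1.63-fold, with an adjusted p of 0.529 by edgeR. For FCPG over wild type the log2 fold change was 0.48 ± 0.45 (adjusted p = 0.559, edgeR), and it was -0.62 without library 46. The 11 markers of hindgut endoderm, where germ cells lie at this stage, summed to 1384 to 2316 CPM in FCPG libraries, 1251.5 to 2054 CPM in FCSPG libraries and 700.0 to 1323 CPM in wild-type libraries, with Shh and Cer1 at 0 in some libraries. The part of hindgut tissue in the Ifitm3 values was not tested.

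Ifitm1 (ENSMUSG00000025491, 140547134 to 140549738, plus strand) was the most abundant of the 8 genes and ordered the libraries differently from its neighbour. It had 220.5, 83.8 and 131 CPM in FCPG libraries 19, 45 and 46, against 240.2, 199.98, 161 and 163 CPM in FCSPG libraries 13, 27, 30 and 32, and 169, 171, 136 and 188 CPM in wild-type libraries 24, 25, 26 and 33. All groups overlapped, and FCPG library 46, the highest for Ifitm3, ranked 10 of 11 for Ifitm1. The log2 fold changes over wild type were -0.20 ± 0.27 for FCPG and 0.20 ± 0.25 for FCSPG (adjusted p = 0.708 and 0.761, edgeR). Ifitm1 is known to be made broadly in the primitive streak and tailbud mesoderm, outside germ cells. The third family member of this cluster, Ifitm2, had 59.9, 23.3 and 73.5 CPM in FCPG libraries 19, 45 and 46, against 86.7, 71.9, 76.1 and 62.2 CPM in FCSPG libraries 13, 27, 30 and 32, and 81.1, 100.5, 87.9 and 67.2 CPM in wild-type libraries 24, 25, 26 and 33, and did not separate either mutant from wild type.

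Because Ifitm1 and Ifitm3 ordered the libraries differently, the windows around their starts are shown, as RefSeq gives them on GRCm38.p6, from 250 bases before to 50 bases after each start. Capitals mark matches to GAAANNGAAA, the core of the interferon-stimulated response element, searched on both strands.
Ifitm3, chr7:141010695-141010994, minus strand: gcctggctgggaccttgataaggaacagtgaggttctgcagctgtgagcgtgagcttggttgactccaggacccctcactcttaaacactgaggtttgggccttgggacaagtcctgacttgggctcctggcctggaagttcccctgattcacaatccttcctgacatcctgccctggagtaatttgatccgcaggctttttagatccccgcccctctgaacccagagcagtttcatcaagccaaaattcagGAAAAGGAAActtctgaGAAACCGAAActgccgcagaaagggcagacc
Ifitm1, chr7:140967826-140968125, plus strand: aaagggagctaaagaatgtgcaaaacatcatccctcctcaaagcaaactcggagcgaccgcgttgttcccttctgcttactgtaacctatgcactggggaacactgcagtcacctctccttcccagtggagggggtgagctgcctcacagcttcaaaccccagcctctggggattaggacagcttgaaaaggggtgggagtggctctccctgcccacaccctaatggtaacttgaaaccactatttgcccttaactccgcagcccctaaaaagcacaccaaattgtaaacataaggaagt
The Ifitm3 window held 2 matches, both in the 50 bases after the start, and the Ifitm1 window held 0, while 3.44% of 32851 promoter windows of the same length held at least 1. A match is only a match of letters. Of the other members, RefSeq windows were at hand for Nanos3 and Prdm1, and neither held GAAANNGAAA. The motif GCCNNNGGC, which AP-2 factors such as the Tfap2c product bind, was found once in the Nanos3 window, in none of the windows of Prdm1, Ifitm1 and Ifitm3, and in 16.6% of all windows.

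Of 8 tested genes listed as interferon-induced, 7 had a log2 fold change above 0 in FCPG and 6 in FCSPG over wild type. Their medians were 0.56 and 0.32, beside medians of 0.00 over all tested genes in both comparisons. By edgeR 0 of the 8 passed the adjusted threshold in either direction, with a background of 0% of all tested genes. Bst2, which encodes tetherin, had 9.29, 20.1 and 11.7 CPM in FCPG libraries 19, 45 and 46, against 3.65, 4.55, 2.57 and 6.83 CPM in wild-type libraries 24, 25, 26 and 33, without overlap (adjusted p = 0.115, edgeR). Its adjusted p by DESeq2 on all groups was 0.015, in a fit that called 9.12% of genes. The FCPG and wild-type groups did not overlap for 14.5% of all tested genes. The FCPG value highest for Bst2 was that of library 45, where Ifitm3 was at its lowest.

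Reads from near copies could be shared between genes. In GENCODE vM21 transcripts, 16.5% of the 50-base words of Dppa3, 10% of those of Ifitm3, 5.02% of those of Ifitm1 and 0.499% of those of Dnd1 also occur in another gene, and none of those of Nanos3, Prdm1, Prdm14 or Tfap2c do. Of the 7 other genes that share such words outside the Ifitm1, Ifitm2 and Ifitm3 cluster, Gm11951 had 1 count, in wild-type library 25, and the other 6, Dppa3-ps and Dnd1-ps among them, had 0 counts in every library. Ifitm2, at 23.3 to 100.5 CPM, shares 20 of these words with Ifitm3. The longest runs shared with Ifitm3 are printed because reads wholly inside them cannot be told apart. The run that the Ifitm2 and Ifitm3 coding sequences share is 69 bases long, at positions 130 to 198 of the 435 coding bases of Ifitm2-201 and 133 to 201 of the 414 of Ifitm3-201. The run that the Ifitm1 and Ifitm3 coding sequences share is 64 bases long, at positions 96 to 159 of the 321 coding bases of Ifitm1-203 and 162 to 225 of the 414 of Ifitm3-201.
Ifitm2 and Ifitm3, shared coding run: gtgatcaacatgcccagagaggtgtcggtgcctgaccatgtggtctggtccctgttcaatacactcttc
Ifitm1 and Ifitm3, shared coding run: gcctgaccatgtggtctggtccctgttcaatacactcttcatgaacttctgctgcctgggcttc
The authors' handling of reads that map to several genes is not given in the sources used here, so values of Ifitm1, Ifitm3 and Dppa3 carry that uncertainty.

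For FCPG against wild type, the 8 genes ranged widely between the 3 FCPG libraries. By edgeR 0 of the 8 genes passed an adjusted p of 0.05 for FCPG over wild type, with a background of 0% of all tested genes. At an unadjusted p of 0.05, 3 genes were higher (Dnd1, Prdm1 and Prdm14) and 0 lower, where 13% of all tested genes were higher. DESeq2 fitted to all groups called 1 member, Prdm14 (adjusted p = 0.0419), where it called 9.12% of genes, and limma-voom called 0. In total 7 of the 8 log2 fold changes were above 0, with a median of 1.13, beside 50.2% of all tested genes and a median of 0.00. For no member did all FCPG libraries lie above, or all lie below, every wild-type library, as they did for 14.5% of all tested genes. The highest of all 11 libraries was FCPG library 46 for 6 of the 8 genes, where it was the highest for 10.7% of all tested genes. The lowest was FCPG library 45 for 5 of the 8 genes, beside 21.9% of all tested genes. That library also had the lowest summed tailbud markers. The part of its tissue content in these values was not tested. In the authors' deposited table for this comparison, turned to FCPG over wild type, 3 members were listed, each with an adjusted p above 0.05: Dnd1 at 1.70 (0.153), Prdm1 at 1.16 (0.118) and Prdm14 at 3.22 (0.167). Of the 3723 genes listed there, 1200 had an adjusted p under 0.05.

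For FCSPG against wild type, the fitted differences of the 8 genes all had the same sign in the fit reported, but several were smaller than their SE. By edgeR 0 of the 8 genes passed an adjusted p of 0.05, with a background of 0%, and at an unadjusted p of 0.05 only Tfap2c was higher, where 6.24% of all tested genes were. DESeq2 fitted to all groups, which called 0.248% of genes, and limma-voom also called 0 members. All 8 log2 fold changes were above 0, with a median of 0.62, beside 49.9% of all tested genes and a median of 0.00. Those of Dppa3, Nanos3, Prdm1 and Ifitm1 were smaller than their SE. With libraries left out, the values of Nanos3 and Prdm1 reached -0.12 and -0.074. The FCSPG and wild-type libraries did not overlap for 2 of the 8 genes, Tfap2c and Ifitm3, both higher, where 4% of all tested genes were higher without overlap. In the authors' deposited table, turned to FCSPG over wild type, 4 members were listed: Tfap2c at a log2 fold change of 1.53 (adjusted p = 0.00332), Ifitm3 at 0.70 (adjusted p = 0.00425), Prdm14 at 1.74 (adjusted p = 0.0948) and Dnd1 at 0.98 (adjusted p = 0.255). That table came from DESeq2, per the submitters' processing notes, and 482 of its 3173 listed genes had an adjusted p under 0.05. DESeq2 fitted here to only the FCSPG and wild-type libraries, an alternative chosen after seeing the data, also called Tfap2c (adjusted p = 0.00626) and Ifitm3 (adjusted p = 0.00448), where it called 2.22% of genes as higher. With the FCPG libraries in the same DESeq2 fit the adjusted p was 0.259 for Tfap2c and 0.475 for Ifitm3. In edgeR on only the FCSPG and wild-type libraries it was 0.235 for both. Over the alternatives tried, the adjusted p ran from 0.00626 to 0.916 for Tfap2c and from 0.00448 to 0.916 for Ifitm3.

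Between the mutants, FCSPG over FCPG, 3 of the 8 log2 fold changes were above 0, with a median of -0.46, beside 49.2% of all tested genes and a median of -0.01. By edgeR 0 of the 8 genes passed an adjusted p of 0.05, with a background of 0%. DESeq2 on all groups, which called 0.00605% of genes, and limma-voom also called 0 members. For no member did all FCSPG libraries lie above, or all lie below, every FCPG library, as they did for 4.66% of all tested genes. At an unadjusted p of 0.05 only Prdm1 was lower, where 6.67% of all tested genes were. Prdm1 averaged 9.95 ± 2.18 CPM in FCSPG libraries (SD, n = 4) and 20.8 ± 13.4 CPM in FCPG libraries (SD, n = 3), a log2 fold change of -1.06 ± 0.41 (unadjusted p = 0.0253, adjusted p = 0.435, edgeR). Without FCPG library 19 it was -1.48 (adjusted p = 0.0207, edgeR), in a fit that called 6.24% of all tested genes. Prdm14 had a log2 fold change of -1.47 ± 1.13 (adjusted p = 0.557, edgeR), which was 2.19 without FCPG library 46. The authors' deposited table lists only Prdm1 of the 8 genes, at -1.06 (adjusted p = 0.886). Of its 1482 listed genes, 0 had an adjusted p under 0.05.

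**Figure D3:**
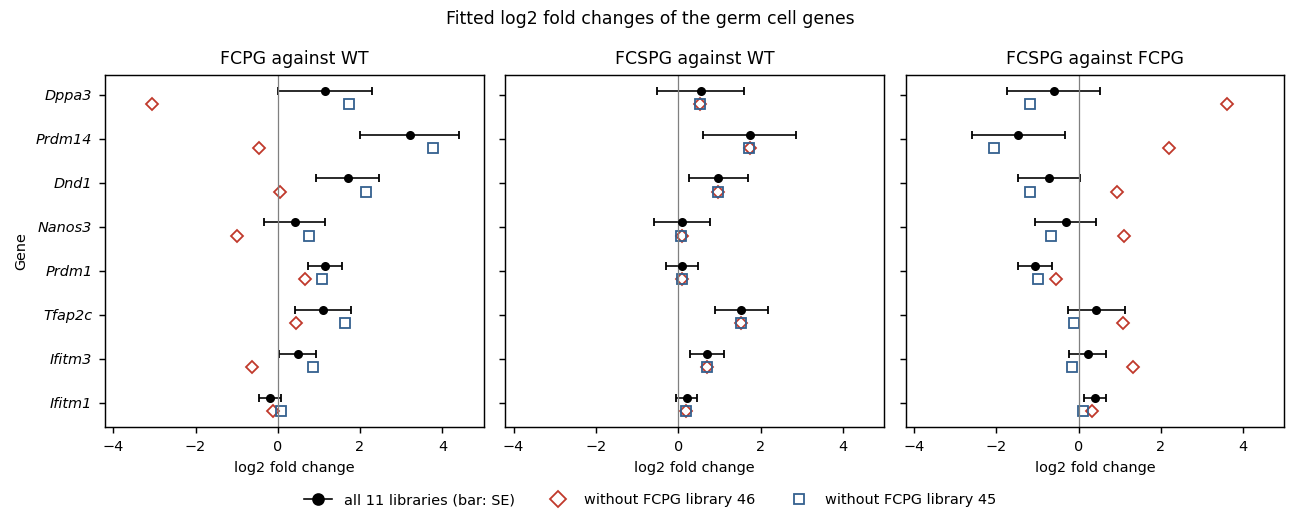
Fitted log2 fold change of each germ cell gene (horizontal axis) for FCPG against WT, FCSPG against WT and FCSPG against FCPG. Filled circles with SE bars use all 11 libraries, open diamonds leave out FCPG library 46 and open squares leave out FCPG library 45. For FCPG against WT, Prdm14 lies at 3.20 with all libraries and at -0.46 without library 46. Neither library left out is part of FCSPG against WT, so values in that panel could hardly move.

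The proportion of Prdm14 to Dppa3 and to Dnd1 counts was compared between libraries. Prdm14 made up 77.3% of the summed Prdm14 and Dppa3 counts in FCPG library 19 (95% exact binomial interval 54.6 to 92.2, 22 counts) and 70.9% in FCPG library 46 (66.4 to 75.1, 436 counts), and FCPG library 45 had too few counts to read (2). The share was 83.0% (69.2 to 92.4) and 72.8% (64.5 to 80.1) in FCSPG libraries 13 and 32 but 24.0% (13.1 to 38.2) and 36.6% (26.2 to 48.0) in FCSPG libraries 27 and 30. In wild-type libraries 24, 25, 26 and 33 it was 22.9% (10.4 to 40.1), 53.1% (34.7 to 70.9), 30.3% (15.6 to 48.7) and 41.4% (28.6 to 55.1). FCPG libraries 19 and 46 and FCSPG libraries 13 and 32 thus carried more Prdm14 per Dppa3 count than any wild-type library by the point shares, though the intervals of all 4 overlapped that of wild-type library 25. FCSPG libraries 27 and 30 lay within the wild-type range. Set against Dnd1 in place of Dppa3, Prdm14 placed some libraries differently. Its share of the summed Prdm14 and Dnd1 counts was 17.2% (10.3 to 26.1), 4.08% (0.498 to 14.0) and 41.8% (38.2 to 45.4) in FCPG libraries 19, 45 and 46, against 25.8% (19.1 to 33.6), 12.4% (6.56 to 20.6), 32.3% (22.9 to 42.7) and 28.0% (23.4 to 33.0) in FCSPG libraries 13, 27, 30 and 32 and 15.7% to 20.2% over the wild-type libraries. By this share FCPG library 19 lay within the wild-type range and FCSPG library 30 above it, the reverse of their places against Dppa3, while FCPG library 46 and FCSPG libraries 13 and 32 lay above the wild-type point shares in both. All intervals cover counting error only.

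**Figure D4:**
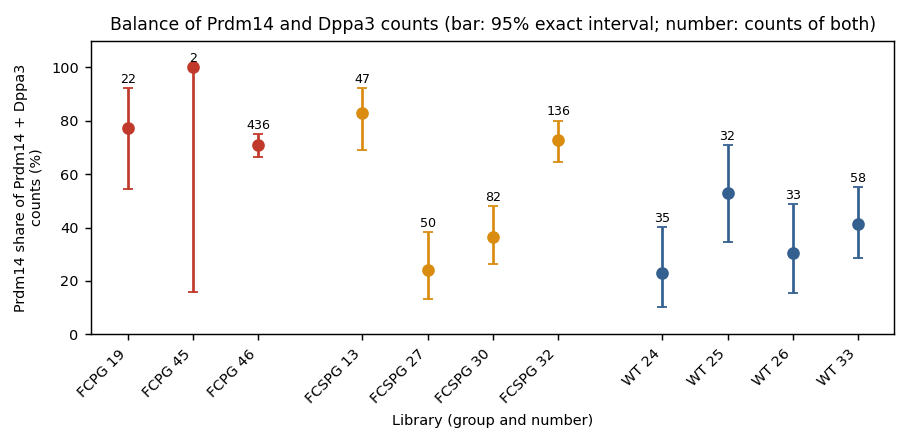
Prdm14 counts as a percentage of Prdm14 plus Dppa3 counts (vertical axis, 0 to 100) in each FCPG, FCSPG and WT library. Points are shares, bars are 95% exact binomial intervals for counting error, and numbers above the bars are the summed counts. FCPG 19 and 46 and FCSPG 13 and 32 lie between 70.9% and 83.0%, the WT libraries between 22.9% and 53.1%, and FCPG 45 rests on 2 counts.

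The other genes of germ cell biology were followed in lists by role. None of the lists, and no tested gene outside them, had a gene past edgeR's adjusted threshold in any comparison. Of 16 genes that induce germ cells or restrain their induction, 12 had a log2 fold change above 0 in FCPG and 8 in FCSPG over wild type, with medians of 0.05 and 0.02. Bmp4, the inducing signal, had 44.3, 61.8 and 124 CPM in FCPG libraries 19, 45 and 46, against 57.3 to 81.2 CPM in FCSPG libraries and 62.2 to 77.1 CPM in wild-type libraries. Its highest value was again in FCPG library 46. Otx2, which restrains entry into the germ line, was low throughout, at 1.21, 1.06 and 4.43 CPM in FCPG libraries 19, 45 and 46, against 1.73, 0.571, 0.160 and 4.99 CPM in FCSPG libraries 13, 27, 30 and 32, and 0 to 0.880 CPM in wild-type libraries. All FCPG libraries lay above all wild-type libraries, and 2 of the 4 FCSPG libraries did. The FCPG and wild-type groups did not overlap for 14.5% of all tested genes. T, the Brachyury gene, had 106, 23.2 and 65.5 CPM in FCPG libraries 19, 45 and 46, against 100.1 to 139.9 CPM in wild-type libraries.

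Most pluripotency genes that germ cells share had higher fitted values in both mutants than in wild type. Of 15 tested, 13 had a log2 fold change above 0 in FCPG and 14 in FCSPG, with medians of 1.02 and 0.49. Nanog had 4.22, 5.97 and 18.0 CPM in FCPG libraries 19, 45 and 46, against 7.89, 1.81, 2.30 and 21.9 CPM in FCSPG libraries 13, 27, 30 and 32, and 0.264, 0.282, 0.739 and 1.81 CPM in wild-type libraries 24, 25, 26 and 33. Its log2 fold changes were 3.59 ± 0.96 for FCPG and 3.45 ± 0.92 for FCSPG over wild type (adjusted p = 0.109 and 0.446, edgeR). DESeq2 on all groups gave adjusted p of 0.00247 and 0.0189, where it called 9.12% and 0.248% of genes. Pou5f1 had 157, 21.8 and 103 CPM in FCPG libraries 19, 45 and 46, against 230.4, 51.0, 12.4 and 259 CPM in FCSPG libraries 13, 27, 30 and 32, and 3.38, 4.32, 2.26 and 75.0 CPM in wild-type libraries 24, 25, 26 and 33. Nanog and Pou5f1 were highest in FCSPG library 32 and not in FCPG library 46, where most of the germ cell genes peaked. In wild type both were highest in library 33. Dnd1, Prdm14, Dppa3, Tfap2c, Nanos3 and Ifitm1 also had their highest wild-type value there, but Prdm1 had its lowest (8.23 CPM). Ifitm3, at 13.0 CPM in library 33, was below its level in libraries 24 and 25. Sox2, which neural progenitors of the tailbud also express, had 54.0, 1.06 and 22.0 CPM in FCPG libraries 19, 45 and 46, against 40.3 to 55.4 CPM in wild-type libraries.

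Of 10 genes of germ cell migration and survival, 5 had a log2 fold change above 0 in FCPG and 4 in FCSPG over wild type, with medians of -0.08 and -0.15. Kit, the receptor on which germ cells depend, had 52.0, 35.7 and 163 CPM in FCPG libraries 19, 45 and 46, against 47.2 to 71.6 CPM in FCSPG libraries and 47.9 to 67.8 CPM in wild-type libraries. Only FCPG library 46 stood outside the common range upward. The receptor gene Cxcr4 had 16.1, 22.7 and 30.8 CPM in FCPG libraries 19, 45 and 46, against 22.3 to 28.2 CPM in wild-type libraries, and its ligand gene Cxcl12 had 79.6, 8.27 and 158 CPM in FCPG libraries 19, 45 and 46, against 77.6 to 195 CPM in wild-type libraries.

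Genes of later germ cell stages were low. Of 20 listed genes found in the table, 14 were tested, of which 10 had a log2 fold change above 0 in FCPG and 8 in FCSPG over wild type, with medians of 1.16 and 0.37. Ddx4, the mouse Vasa gene, had 3.85, 11.9 and 6.93 CPM in FCPG libraries 19, 45 and 46, against 2.15, 1.14, 1.12 and 4.28 CPM in FCSPG libraries 13, 27, 30 and 32, and 0.740, 0.704, 1.09 and 2.43 CPM in wild-type libraries 24, 25, 26 and 33. Its FCPG libraries lay above all wild-type libraries and were highest in library 45, where Dppa3, Prdm14 and Tfap2c were at their lowest. The log2 fold change was 2.60 ± 0.60 (adjusted p = 0.104, edgeR) and the adjusted p by DESeq2 on all groups was 0.00189. Dazl was below 0.3 CPM in every library. Of 15 genes of chromatin resetting, 5 had a log2 fold change above 0 in FCPG and 3 in FCSPG over wild type, with medians of -0.08 and -0.16. Uhrf1, which germ cells shut down as they lose DNA methylation, had 383, 299 and 321 CPM in FCPG libraries 19, 45 and 46, against 424 to 496 CPM in wild-type libraries, without overlap (adjusted p = 0.104, edgeR). Its adjusted p by DESeq2 on all groups was 0.0117, in a fit that called 9.12% of genes. FCPG and wild-type libraries did not overlap for 14.5% of all tested genes. Dnmt3b and Dnmt3l of the same list went the other way. Their log2 fold changes in FCPG over wild type were 1.32 and 2.15 (adjusted p = 0.135 and 0.149, edgeR). For Dnmt3b the adjusted p by DESeq2 on all groups was 0.0388.

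**Figure D5:**
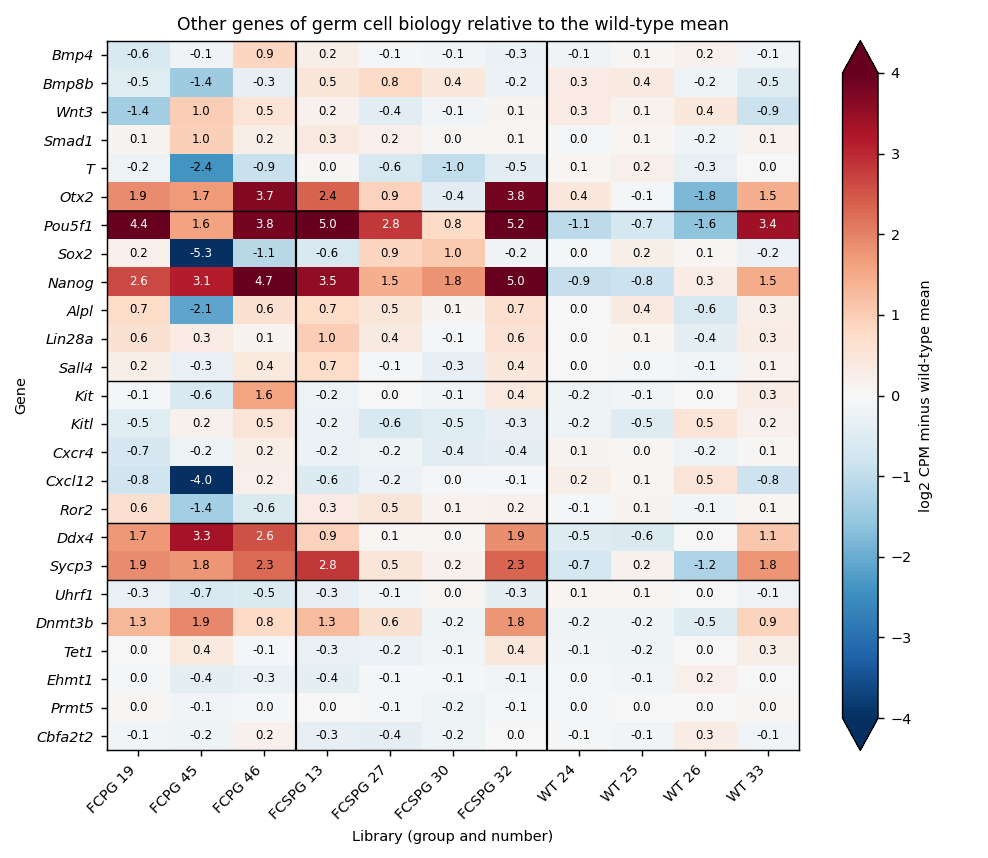
Log2 CPM minus the wild-type mean for other genes of germ cell biology (rows, in blocks for induction, pluripotency, migration and survival, later germ cell stages and chromatin) in each library (columns), with values printed. Nanog is above 0 in all 7 mutant libraries, at 1.5 to 5.0, while Kit exceeds 1 only in FCPG library 46, at 1.6.

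The genes whose profile over the 11 libraries came closest to a member were found by the root mean square difference of centred log2 CPM, among 14268 genes averaging 1 CPM or more. For Dppa3 they were Frmpd2 (0.65), Tbx4 (0.66), Esrrb (0.71), Tnfrsf11a (0.74) and Lrrc34 (0.84), beside a median of 1.61 over all genes compared. Tbx4, a marker of the allantois, had 10.3, 1.30 and 374 CPM in FCPG libraries 19, 45 and 46, against 29.5 to 67.3 CPM in FCSPG libraries and 25.3 to 154 CPM in wild-type libraries. The highest and lowest libraries for Tbx4 were those for Dppa3, but Tbx4 is named here because its profile was selected as close to that of Dppa3. The part of allantois tissue in the Dppa3 values was not tested. For Prdm14 the closest were Gbp2 (0.60), Parp12 (0.72), Lrrc34 (0.72), the member Dnd1 (0.82) and Dnaaf3 (0.93), beside a median of 1.72. For Ifitm3 they were Ano1 (0.29), Gpat2 (0.38), Gabre (0.39), Gm15222 (0.39) and Aspg (0.39), beside a median of 0.73. The closest genes lie below these medians because they were selected by this measure. These are descriptions over 11 libraries that share depth and group, and no test was made.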

How the data were processed

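Poly(A) RNA of 11 libraries was prepared with a stranded kit, per the labels' protocols. The deposited counts per gene came from HISAT2 alignment to mm39 and featureCounts, per the submitters' processing notes. Versions, annotation and strand setting are not given in the sources used here. Deposited log2 fold changes and p-values came from DESeq2, per the submitters' processing notes. They list genes with p under 0.05, and signs were changed where needed so that mutants stand over wild type, and FCSPG over FCPG. A deposited FPKM table was not used.

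Columns were tied to groups by name. Counts were fitted in edgeR 4.0.16 (R 4.3.3): filterByExpr with a minimum count of 10, TMM, all 11 libraries, quasi-likelihood F test, two-sided, Benjamini-Hochberg over 16572 genes, threshold 0.05. SE is the log2 fold change over the root of F. Log2 CPM used a prior count of 2. Alternatives were DESeq2 1.42.0, limma-voom 3.58.1, other scaling and filters, and each library left out. Scripts were tested on simulated data. The genes described and the lists were chosen with earlier results of these data known. Named genes are the 8 members, genes marked by role in the lists and the 5 closest profiles of Dppa3, Prdm14 and Ifitm3; others are named by measured values. Of 179 list symbols, 1 was not matched. Sequences came from RefSeq (GRCm38.p6; 4 of 8 members matched) and GENCODE vM21.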

Additional observations from a re-analysis of the deposited data

Results flagged for a closer look

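Among 118 sets of 4 libraries (59 genes in the FCSPG and wild-type groups), 5 held a library whose gap to the others passed Dixon's 95% limit, and chance gives about 1 in 20. None of the 8 germ cell genes was among them. Ehmt1 was low in FCSPG library 13 at 124 CPM, and Foxa2 was low in FCSPG library 30 at 7.85 CPM. In wild type, Cbfa2t2 was high in library 26 at 45.1 CPM, Nanos1 was low in library 24 at 2.06 CPM and Fgf8 was high in library 25 at 52.0 CPM.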

How the results depend on the processing

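No paired analysis was possible because the numbers in the column names match no replicate number of the titles. For FCPG over wild type, DESeq2 on all groups called 1 member (Prdm14) and 1477 genes, DESeq2 on the 2 groups (chosen after seeing the data) 1120 genes, and edgeR with no filter 403 genes, against 0 in the fit reported. Leaving out a library gave 0 to 1 members and 0 to 2736 genes, both highest without FCPG library 19. For FCSPG over wild type, DESeq2 called 41 genes, DESeq2 on the 2 groups 2 members and 485 genes, and leaving out a library gave 0 to 4 genes, the highest without wild-type library 33. For FCSPG over FCPG, DESeq2 called 1 gene, and leaving out a library gave 0 to 1 members and 0 to 1063 genes, highest without FCPG library 19. The causes were not tested.

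With limma-voom the sign turned for FCPG over wild type in Dppa3 (-1.51) and Nanos3 (-0.063), for FCSPG over wild type in Nanos3 (-0.064) and for FCSPG over FCPG in Dppa3 (1.95) and Prdm14 (0.44). Leaving out libraries gave ranges across 0. For FCPG over wild type these were -3.07 to 1.72 for Dppa3, -1.001 to 0.85 for Nanos3, -0.46 to 3.77 for Prdm14, -0.63 to 0.075 for Ifitm1 and -0.62 to 0.86 for Ifitm3. For FCSPG over wild type they were -0.12 to 0.36 for Nanos3 and -0.074 to 0.22 for Prdm1. For FCSPG over FCPG they were -1.19 to 3.61 for Dppa3, -1.24 to 0.92 for Dnd1, -0.76 to 1.09 for Nanos3, -2.14 to 2.19 for Prdm14, -0.11 to 1.08 for Tfap2c and -0.17 to 1.32 for Ifitm3. Of 139, 141 and 141 values under alternatives for FCPG over wild type, FCSPG over wild type and FCSPG over FCPG, 130, 136 and 131 kept their direction and side of the threshold. These include fits that left out a library of the group not compared. In those the log2 fold change could hardly move, so the counts overstate how stable the values are. Low counts limit Nanos3, Dppa3 and Prdm14 most.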
